A study of Homo sapiens with 2 samples.

Results

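Solute carriers outside the mitochondrial SLC25 family were compared between HEK-293T cells given a miR-194 mimic and cells given a negative control mimic. A gene was a member when its symbol began with SLC, a family number, letters and a further number, and when a probe set naming that gene alone had a log2 signal of 6.1 or more on at least 1 array. SLC25 genes, SLC2A1, SLC2A3 and SLC7A11 were left out by the same rule. The rule found 194 members among the 12726 genes that passed the same signal filter, read by 350 probe sets. Of the members, 184 are carriers and 10 are pseudogenes, antisense or divergent transcripts, or proteins that only share the symbol. Because the signal chose the members, that they are detected is no finding. The rule did not use the difference between the mimics.

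HEK-293T is an established human embryonic kidney line that carries the SV40 large T antigen. The 2 groups differ only in the synthetic RNA that was transfected, miR-194 or a negative control mimic, each at 50 nM for 48 h, per the labels. Both groups share the cell line, the growth medium with serum, the lipid transfection reagent and the labelling kit. Each group holds 1 array, so there is no replicate error and no test between the conditions, and differences between cultures, labelling reactions and arrays cannot be told apart from an effect of the mimic. In RNA of a whole culture, fewer expressing cells and less RNA per cell cannot be told apart either.

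Solute carriers are membrane proteins that move small molecules across the plasma membrane or the membranes of organelles. Most use a gradient of sodium, protons or another solute rather than ATP, and they are grouped by sequence into numbered families whose members often share a substrate class. In kidney epithelium they recover amino acids, sugars, phosphate and bicarbonate from the filtrate, and in any growing cell they supply amino acids, metals and nucleotide sugars. A microRNA mimic acts on transcripts through its seed, the bases near its 5′ end that pair with sites mostly in the 3′ untranslated region, and such pairing usually lowers the transcript.

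The mature strands of human miR-194 are shown because the seed decides which transcripts the mimic can pair with. Sequences are from RefSeq (GRCh38.p14), written 5′ to 3′, with the seed, bases 2 to 8, in capitals.
hsa-miR-194-5p: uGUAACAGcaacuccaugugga
hsa-miR-194-3p: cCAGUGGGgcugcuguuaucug
The 5p strand is encoded on the minus strand at chr1:220118206-220118227 and again at chr11:64891404-64891425, and the 3p strand at chr11:64891368-64891389. A transcript site that pairs with the 5p seed holds the letters CUGUUAC, and 1 that pairs with the 3p seed holds CCCACUG. No other mature miRNA among the 2370 names in the table has either seed. The labels do not name the strand of the mimic. Transcript sequences of the members were not used here, so no member is described as having or lacking a site.

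The deposited values are log2 signals, and a difference is taken on a gene's brightest probe set as miR-194 minus control, so that negative values mean less signal after miR-194. Signals under 6.1 were set to 6.1 for the difference, which is then a bound, and this touched 22 members. Of these, 14 were under 6.1 with the miR-194 mimic and 8 with the control mimic. The value after the ± sign is the probe set error. It is the disagreement between the 2 brightest probe sets of a gene over all 6434 genes that have them, and it was 0.38 for genes with a mean log2 signal under 9.24, 0.31 for those under 10.88 and 0.27 for the brighter ones. It leaves out variation between cultures. Pairs of signals are given in the order control mimic, miR-194 mimic. Of 8 genes known in HEK-293T cells, 7 reached 6.1, among them NEFL (10.76 and 10.91) and VIM (13.94 and 14.21). The exception was LHX1, at 2.19 and 3.62. Of the markers of other cell types, 0 of 5 hepatocyte, 1 of 4 blood, 1 of 4 endothelial, 2 of 6 fibroblast and 5 of 8 adult proximal tubule genes reached 6.1 on either array. The log2 of their summed signal, control mimic first, was 7.03 and 7.78 for hepatocyte, 6.88 and 7.38 for blood, 7.07 and 7.45 for endothelial, 9.61 and 9.58 for fibroblast and 8.83 and 8.69 for proximal tubule genes.

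Few members differed by 1.5-fold. Of the 194 members, 15 were lower by 1.5-fold or more with the miR-194 mimic (7.73%), against 7.25% of all genes that passed the filter. Another 7 were higher by that size (3.61%), against 3.03% of all genes. At 2-fold, 1 member was lower (SLC2A13, a proton-coupled myo-inositol carrier), against 1.41% of all genes, and 1 was higher (the pseudogene SLC26A10P), against 0.448%. The median difference was 0.0046 over the members and 0.02 over all genes, and the SD of the differences was 0.36 in both. Below 0 lay 95 members (49.0%), against 47.3% of all genes. For 138 members (71.1%) the difference was within 1 probe set error, against 70.7% of all genes, and 11 were lower (5.67%) and 5 higher (2.58%) by more than 2 such errors, against 5.19% and 1.65% of all genes. These shares are close to those of all genes, so the counts show nothing particular to solute carriers. The values below describe single carriers, ordered by substrate class. Counts within a class are to be read beside these shares of all genes, since in a small class a single member changes the share much.

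**Figure D1:**
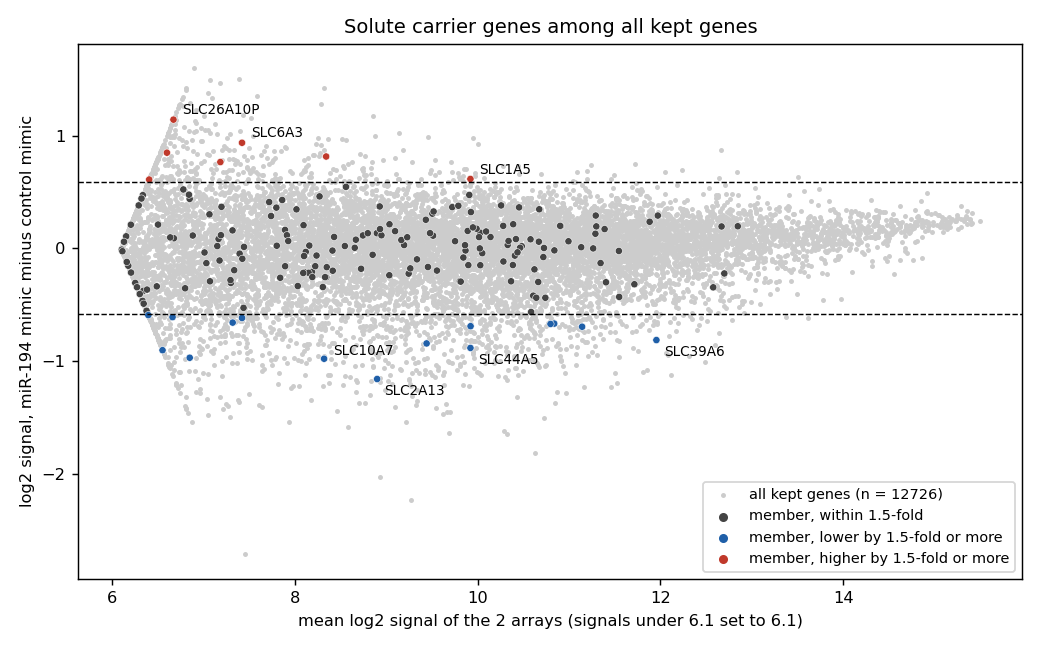
Difference in log2 signal (miR-194 mimic minus control mimic, vertical axis) against mean log2 signal of the 2 arrays (horizontal axis), with 1 point per gene. All 12726 genes are grey, the 194 members are dark, blue where lower by 1.5-fold or more (15) and red where higher (7), and the dashed lines mark 1.5-fold. The members lie inside the cloud of all genes.

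Both inositol carriers among the members were lower. SLC2A13 had log2 signals of 9.48 (control mimic) and 8.32 (miR-194), a difference of -1.16 ± 0.38, which is 2.23-fold lower. Its other probe set was at 6.11 and 4.58, at the edge of the filter, and tells nothing of the size. SLC5A3, the sodium-coupled myo-inositol carrier that cells use to hold osmolytes, was at 11.13 and 10.46, a difference of -0.67 ± 0.31. The second SLC5A3 probe set was at 10.71 and 10.22, also lower (-0.49). This pair was singled out after its values were seen.

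The 19 members of the sugar class, which takes in the hexose family SLC2 and the mixed sodium-coupled family SLC5, had a median of 0.0038, with 3 lower and 1 higher by 1.5-fold. SLC2A9, a urate carrier of the hexose family, was at 7.00 and 5.70 and so at least 1.87-fold lower. SLC45A2, a carrier known from melanosomes, was at 5.96 and 6.71 and so at least 1.53-fold higher. Its signals straddle the filter, and both SLC2A9 and SLC45A2 rest on 1 probe set. SLC5A5, the iodide carrier of thyroid, was at 6.52 and 7.04 (0.52 ± 0.38), inside 1.5-fold. In the SLC2 family alone, 6 of 8 members were below 0, against 47.3% of all genes, and the median was -0.20. For 3 of the 8 (SLC2A5, SLC2A9 and SLC2A10) the difference is a bound. These passed the filter with the control mimic alone, so the filter fixed their sign, and the count shows no trend of the family. The fructose carrier SLC2A5 went from 6.59 to 5.83. SLC2A8, an intracellular hexose carrier, was at 8.89 and 9.01, and SLC37A4, which carries glucose 6-phosphate into the endoplasmic reticulum, was at 10.38 and 10.46. A second SLC37A4 probe set differed by 0.97, so its probe sets disagreed. Of the glucose carriers that the rule leaves out, SLC2A1 was at 9.08 and 9.34.

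Of the 36 members of the amino acid class, 3 were higher and 2 lower by 1.5-fold, with a median of 0.01. Classes follow the family number, so this class also holds carriers of dopamine and creatine. SLC1A5, the sodium-coupled carrier for glutamine and other neutral amino acids, had log2 signals of 9.61 (control mimic) and 10.23 (miR-194), a difference of 0.62 ± 0.31 on its only probe set. SLC1A4, its relative for alanine, serine and cysteine, was at 6.80 and 7.57 on the brightest probe set (0.77 ± 0.38). The other 3 SLC1A4 probe sets were at 0.04 (signals 7.02 and 7.06), -0.48 (7.20 and 6.72) and -0.09, so 1 of 4 was past 1.5-fold and 2 were below 0. SLC6A3, the dopamine carrier of midbrain neurons, was at 6.95 and 7.89 (0.94 ± 0.38), on 1 probe set and at low signal. In the same family SLC6A11, a GABA carrier, was at 6.97 and 6.36 (-0.61 ± 0.38) with its other probe set at 0.01, a value capped by the floor.

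SLC7A2, a carrier of arginine and lysine, was the lowest of the amino acid class. It was at 9.86 and 9.02, a difference of -0.84 ± 0.31, and its second probe set went from 6.32 to under the filter. SLC7A1, the widely expressed carrier of the same substrates, was at 12.57 and 12.77 (0.19 ± 0.27), within its error. The heavy chain SLC3A2 was at 10.07 and 10.45 (0.38 ± 0.31), whereas SLC7A5, the light chain it brings to the membrane to carry leucine, was at 11.87 and 11.56 (-0.32 ± 0.27). These 2 subunits of 1 carrier thus differed in opposite directions, each inside 1.5-fold. SLC7A11, another light chain of SLC3A2 that the rule leaves out, was at 10.28 and 9.41 on its brightest probe set and at 0.01 on another.

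None of the 7 members of the glutamine and neutral amino acid family SLC38 passed 1.5-fold. SLC38A2 was at 12.81 and 12.59, and its 3 probe sets ranged from -0.22 to -0.06. SLC38A1 was at 12.75 and 12.41 (-0.35 ± 0.27), with 3 probe sets from -0.35 to -0.01. SLC38A9, a lysosomal arginine sensor, was at 9.97 and 10.07. The taurine carrier SLC6A6 was at 10.10 and 9.95, and the creatine carrier SLC6A8 was at 11.22 and 11.35.

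**Figure D2:**
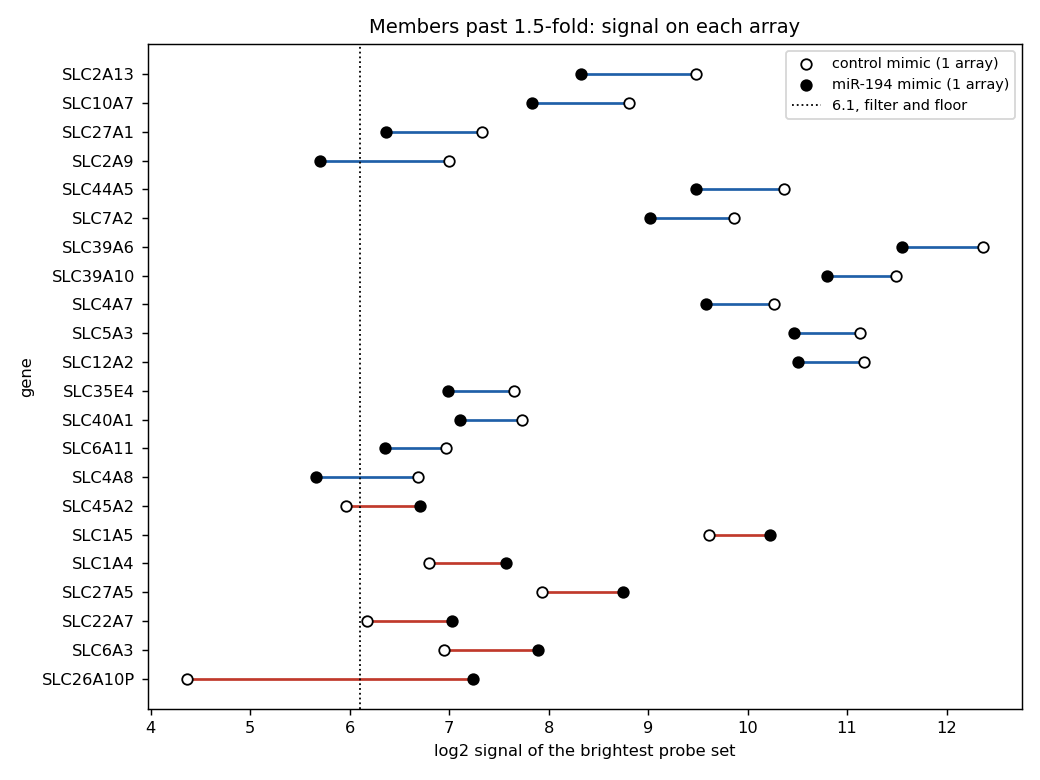
Log2 signal of the brightest probe set on each array (horizontal axis) for the 22 members past 1.5-fold (vertical axis), with open points for the control mimic and filled points for the miR-194 mimic. The dotted line is the filter at 6.1. Blue lines join the 15 lower members and red lines the 7 higher ones. Of the higher ones, SLC1A5 alone had both signals above 9.

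Of the 3 metal carriers lower by 1.5-fold, 2 were zinc importers. SLC39A6, a zinc importer of the plasma membrane, had log2 signals of 12.36 and 11.55, a difference of -0.81 ± 0.27. SLC39A10, a close relative with the same task, was at 11.49 and 10.80, a difference of -0.69 ± 0.27 on its only probe set. The other SLC39A6 probe sets were at -0.11, 0.33 and -0.11, so the brightest probe set stands alone. Of the other 9 members of the SLC39 family, 7 were above 0 and 2 below, SLC39A4 (-0.08) and SLC39A8 (-0.13), and the median of the 9 was 0.06. Setting the 2 lowest members apart raised that median. Over all 11 SLC39 members, 4 were below 0, against 47.3% of all genes, and the median was 0.03. SLC39A14, which also takes up iron and manganese, was at 11.83 and 12.12 (0.29 ± 0.27), and SLC39A11 was at 8.29 and 8.83 (0.55 ± 0.38). Neither passed 1.5-fold.

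In the SLC30 family, which moves zinc out of the cytosol, 5 of 6 members were below 0, against 47.3% of all genes (median -0.24). None passed 1.5-fold on its brightest probe set. SLC30A1, the zinc exporter of the plasma membrane, was at 10.82 and 10.40 (-0.42 ± 0.31), with its second probe set at 0.05. SLC30A9 was at 11.76 and 11.33 (-0.43 ± 0.27), and its second probe set was at -0.71. SLC40A1, ferroportin, the iron exporter, was at 7.73 and 7.11, a difference of -0.62 ± 0.38 on 1 probe set. The endosomal iron carrier SLC11A2 was at 10.09 and 10.19 on the brightest of 5 probe sets, which ranged from -1.12 to 0.56. Of the copper carriers, SLC31A1 was at 10.54 and 10.62 and SLC31A2 at 8.04 and 8.50 (0.46 ± 0.38). Over all 26 metal carriers, 3 were lower (11.5%) and 0 higher by 1.5-fold, against 7.25% and 3.03% of all genes. Their median was -0.02.

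Carriers of inorganic ions had 3 of 26 members lower (11.5%) and 0 higher by 1.5-fold, against 7.25% and 3.03% of all genes. Their median was -0.09. SLC4A7, an electroneutral sodium bicarbonate carrier that raises cell pH, was at 10.27 and 9.58, a difference of -0.69 ± 0.31. SLC12A2, the sodium, potassium and chloride carrier that loads cells with chloride, was at 11.17 and 10.50, a difference of -0.67 ± 0.31. The second SLC12A2 probe set was at 9.43 and 9.47, so its lower value rests on 1 of 2 probe sets. SLC4A8, another sodium bicarbonate carrier, was at 6.69 and 5.66 and so at least 1.51-fold lower, close to the filter.

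The carriers that let chloride out with potassium, opposite to SLC12A2, were inside 1.5-fold. SLC12A7 was at 9.35 and 9.66 (0.31 ± 0.31) and SLC12A4 was at 6.53 and 6.15 (-0.38 ± 0.38). The phosphate carrier SLC20A1 was at 12.75 and 12.94 (0.20 ± 0.27), with a much dimmer probe set at -0.60. The sulfate carrier SLC26A2 was at 10.96 and 10.52 (-0.44 ± 0.31), and its 3 probe sets were all below 0, from -0.44 to -0.17. SLC9A5, a sodium proton exchanger, was highest in the class at 6.60 and 7.08 (0.48 ± 0.38), with another probe set at -0.34.

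Of the 5 fatty acid carriers of the SLC27 family, which also act as acyl-CoA synthetases, 1 was lower and 1 higher by 1.5-fold. SLC27A1 was at 7.33 and 6.36 (-0.97 ± 0.38), whereas SLC27A5, which in liver couples bile acids to CoA, was at 7.93 and 8.75 (0.82 ± 0.38). The other 3 members were between -0.24 (SLC27A4, at 9.15 and 8.91) and 0.01 (SLC27A3). Each of SLC27A1 and SLC27A5 rests on 1 probe set at low signal.

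Among carriers of organic acids and organic ions, 1 of 19 members was lower and 1 higher by 1.5-fold, with a median of 0.03. SLC10A7, a relative of the bile acid carriers that is known from inherited skeletal disease, was at 8.81 and 7.83, a difference of -0.98 ± 0.38. SLC22A7, an organic anion carrier of liver and kidney, was at 6.18 and 7.02 (0.85 ± 0.38), with its control signal near the filter. The carnitine carrier SLC22A5 was at 9.88 and 9.86, and the proton-coupled drug exporter SLC47A1 was at 9.46 and 9.57. SLC16A10, which carries aromatic amino acids, was at 11.26 on both arrays, with other probe sets at -0.46 and 0.55.

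The SLC35 family, taken whole as the nucleotide sugar class, had 1 of 23 members lower and 0 higher by 1.5-fold, and a median of -0.02. Many of its carriers supply the Golgi with activated sugars, but not every member is a known nucleotide sugar carrier. SLC35E4, whose substrate is not settled, was at 7.65 and 6.99 (-0.66 ± 0.38). The carrier for CMP-sialic acid, SLC35A1, was at 10.86 and 10.42 (-0.44 ± 0.31). The carrier for UDP-galactose, SLC35A2, was at 10.64 and 10.70, with 3 probe sets from -0.28 to 0.60. The UDP-N-acetylglucosamine carrier SLC35A3 was at 9.95 and 9.66, with 3 probe sets that were all below 0, from -0.62 to -0.29. The GDP-fucose carrier SLC35C1 was at 7.51 and 7.92, and its 2 probe sets were both at 0.41. SLC35A4 was highest, at 9.67 and 10.15 (0.47 ± 0.31), and the endoplasmic reticulum carrier SLC35B1 was at 11.30 and 11.47.

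Carriers of nucleosides, vitamins and cofactors had 11 of 18 members below 0, against 47.3% of all genes, and a median of -0.10. SLC44A5, of the choline carrier-like family, was the only 1 past 1.5-fold, at 10.36 and 9.48 (-0.88 ± 0.31), and its other 2 probe sets were also below 0, at -0.19 and -0.27. Its relative SLC44A1, the best known choline carrier of the family, was at 11.55 and 11.25 (-0.30 ± 0.27), with 5 probe sets from -0.75 to 0.29. The folate carrier SLC19A1 was at 10.30 and 10.37, with 5 probe sets from -0.69 to 0.22. The thiamine carrier SLC19A2 was at 10.71 and 10.53, and the nucleoside carrier SLC29A1 at 7.99 and 8.20. SLC44A3 was highest in the class at 6.40 and 6.61.

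None of the 12 members of other families passed 1.5-fold. SLC67A1, once named SLC22A18, was lowest at 7.70 and 7.17 (-0.53 ± 0.38), SLC68A1 was highest at 7.65 and 8.08 (0.43 ± 0.38), and SLC71A1 was at 11.56 and 11.53. Of the 10 members that are not carriers, 8 were above 0 and 2 below, against 47.3% of all genes below 0, and 1 passed 1.5-fold. That was SLC26A10P, at 4.37 (control mimic) and 7.24 (miR-194), hence at least 2.21-fold higher. SLC12A2-DT, a transcript that starts beside SLC12A2, was at 8.29 and 8.08 (-0.21 ± 0.38), and SLC4A1AP, a nuclear and cytosolic protein named for its binding to a SLC4 carrier, was at 10.96 and 11.03.

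**Figure D3:**
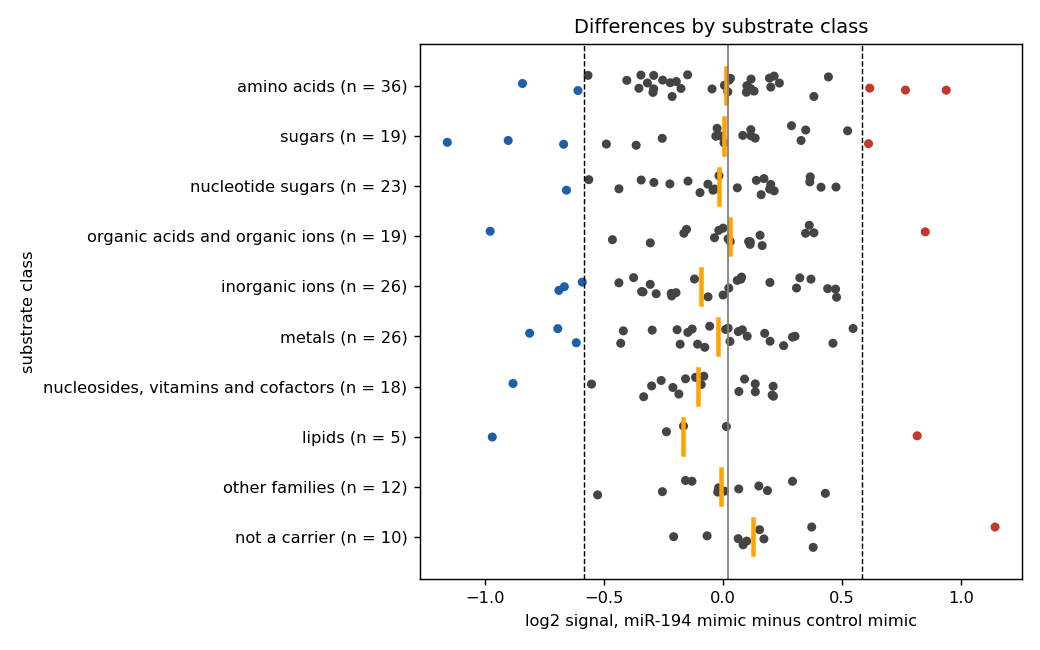
Difference in log2 signal (miR-194 mimic minus control mimic, horizontal axis) of each of the 194 members by substrate class (vertical axis, with the number of members). Orange bars are class medians, the grey line is the median of all genes (0.02), and dashed lines mark 1.5-fold. Every class median lies between -0.17 (lipids) and 0.13 (not a carrier), well inside the spread of its members.

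Probe sets of the same carrier often disagreed. Of the 194 members, 100 had 1 probe set that passed the filter and 94 had 2 or more. In 42 of the 94 all probe sets had the same sign, below 0 in 23 and above 0 in 19, and in 0 of the 94 were all probe sets past 1.5-fold in 1 direction. In 17 of the 94 the second-brightest probe set could not pass 1.5-fold, because its signal was too near the floor. The second-brightest probe set had the sign of the brightest in 51 of 94 members (54.3%), against 60.4% of all 6434 genes with such a pair. Of the 15 lower members, 8 had a second probe set, which was below 0 in 6 and past 1.5-fold in 0. For 4 of the 8 (SLC2A13, SLC7A2, SLC4A7 and SLC6A11) the second probe set lay so near 6.1 that its floored difference could not pass 1.5-fold. That floored value tells nothing of the size. The second SLC6A11 probe set, at 5.87 and 6.11, was higher with miR-194 and inside 1.5-fold even without the floor. In the other 4 of the 8 the second probe set was below 0 in 3. Of these 8, SLC5A3 had the nearest pair, -0.67 and -0.49. Only 1 of the 7 higher members had a second probe set, SLC1A4. The brightest probe sets of SLC4A7, SLC35E4, SLC1A4, SLC27A5 and SLC22A7 are of types designed on sequence that transcripts share. Another 9 members were lower by 1.5-fold on a dimmer probe set only, among them SLC36A4, an amino acid carrier, at -0.91. A further 5 were higher on a dimmer probe set only, among them SLC9D1 at 0.87. Neither these counts nor those for all probe sets of a member were taken over all genes. Nothing particular to solute carriers can be read from them. Over probe sets instead of genes, 24 of 350 (6.86%) were lower and 12 (3.43%) higher by 1.5-fold, against 7.84% and 5.11% of all 24133 probe sets that passed the filter.

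**Figure D4:**
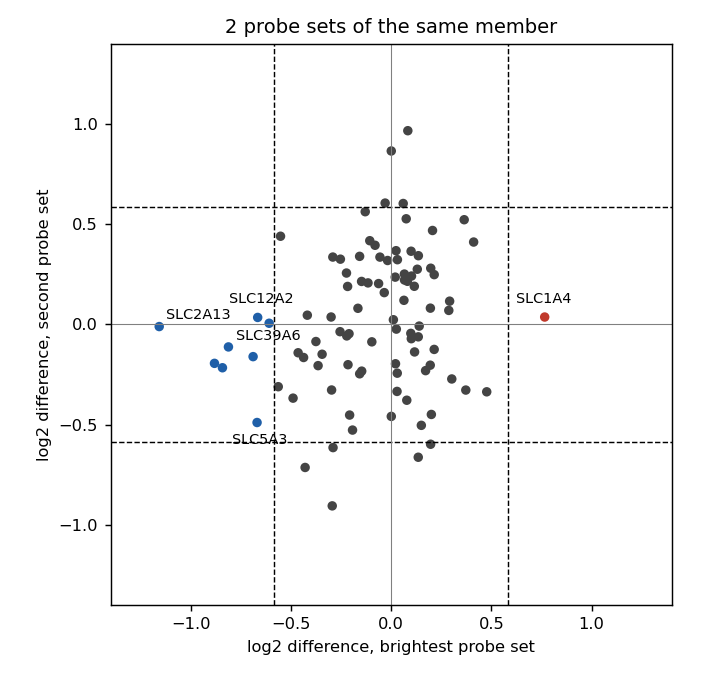
Log2 difference of the second-brightest probe set (vertical axis) against that of the brightest (horizontal axis) for the 94 members with 2 or more probe sets. Dashed lines mark 1.5-fold, blue points are lower and red points higher on the brightest probe set. No point lies past 1.5-fold on both axes, but for 17 points the signals lay too near the floor at 6.1 for the vertical value to pass it. Among them are SLC2A13, SLC7A2, SLC4A7 and SLC6A11. The second probe set of SLC6A11 was inside 1.5-fold even without the floor.

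The lower carriers were longer genes than the other members, as lower genes were among all genes. The 15 lower members had a median genomic length of 111.7 kb, the 7 higher ones 13.7 kb and all members 33.7 kb. Among all genes these medians were 68.1 kb for lower, 15.5 kb for higher and 29.8 kb in all. In the longest of 5 length classes (member median 130.1 kb), 9 of 37 members (24.3%) were lower and 0 higher by 1.5-fold, against 14.2% lower and 1.77% higher among all genes of that class. In the class before it (member median 60.7 kb), 1 of 44 members was lower (2.27%) against 9.32% of all genes, so the members' share did not rise steadily with length. In the shortest class (member median 5.92 kb), 0 of 31 members were lower and 1 was higher, against 3.58% and 4.92% of all genes. SLC2A13, SLC44A5, SLC2A9 and SLC10A7, 4 of the 5 lowest members, span 351.1, 521.9, 269.2 and 268.0 kb. Across the members, which share the 2 arrays and are not independent, Spearman's rho between length and difference was -0.28, and it was -0.22 across all genes. With the trend on length removed, 10 members were lower (5.15%, against 6.19% of all genes) and 8 higher (4.12%, against 3.07%). SLC12A2, SLC4A7, SLC4A8, SLC39A10, SLC6A11 and SLC1A5 were then inside 1.5-fold, while SLC39A11 (0.72) and SLC4A5 (0.59) were past it. Whether length has a part in these values was not tested.

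**Figure D5:**
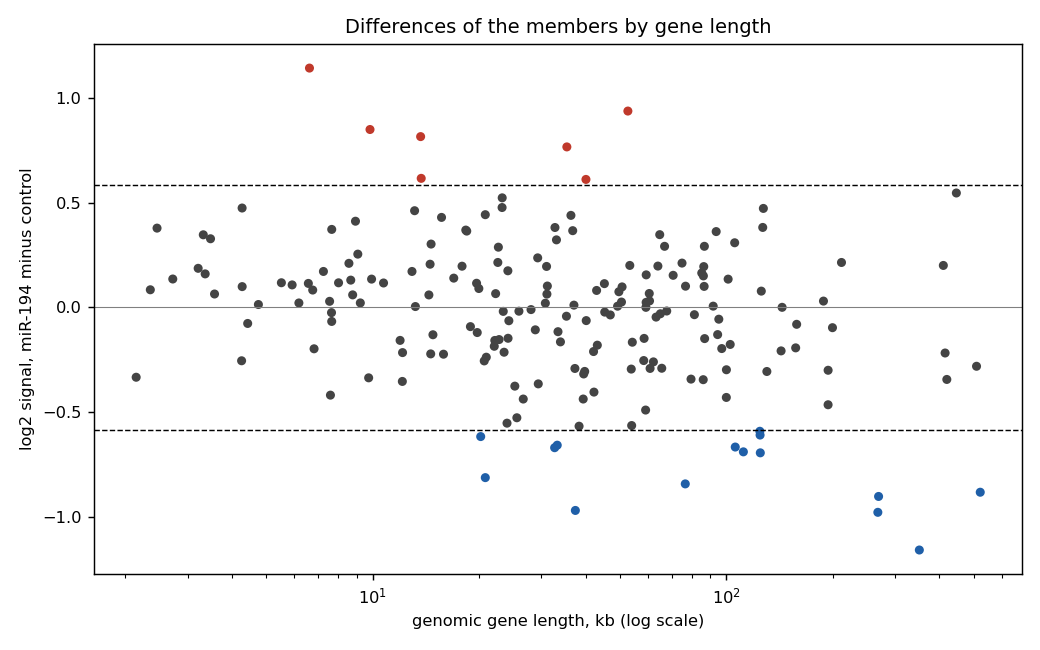
Difference in log2 signal (miR-194 mimic minus control mimic, vertical axis) against genomic gene length in kb (horizontal axis, log scale) for the 194 members. Blue points are lower and red points higher by 1.5-fold or more, and dashed lines mark 1.5-fold. The 4 longest of the lower members span 268.0 kb or more, and the longest higher member, SLC6A3, spans 52.6 kb.

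Transporters of other kinds are given for comparison. Over all genes, 7.25% were lower and 3.03% higher by 1.5-fold. Of 40 mitochondrial SLC25 carriers, 1 was lower and 1 higher by 1.5-fold (median 0.07), and 3 antisense RNAs with SLC25 symbols were inside 1.5-fold. Of 20 ATP-driven ABC transporters 0 were lower and 3 higher (median 0.01). Another 6 genes with ABC symbols, which are pseudogenes or proteins without a membrane domain, were inside 1.5-fold. A list of carriers whose symbols do not follow the SLC pattern had 1 of 23 lower and 1 higher (median -0.16). These were FLVCR2, at least 1.55-fold lower, and TMEM165, a Golgi manganese and proton carrier, at 10.87 and 11.61 (0.74 ± 0.27). The 4 probe sets of TMEM165 ranged from 0.02 to 0.89. The differences between these lists and the members were not tested.

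Partner subunits and regulators of carriers had 1 of 19 lower and 1 higher by 1.5-fold, with a median of 0.12. Each is 5.26%, against 7.25% and 3.03% of all genes. WNK3, a kinase that switches on SLC12A2, was at 8.87 and 8.11 (-0.77 ± 0.38), and its second probe set was at -0.61. The other WNK kinases in the list were not lower on their brightest probe sets. WNK1 was at 11.38 and 11.40 (0.02 ± 0.27), WNK2 at 8.25 and 8.39 (0.14 ± 0.38) and WNK4 at 5.70 and 6.28. STK39, the kinase that passes the WNK signal to SLC12A2, was at 10.70 and 10.20 (-0.50 ± 0.31), while the related OXSR1 was at 11.27 and 11.42. ATP1B2, a subunit of the sodium pump, was at 3.76 and 7.22 and so at least 2.18-fold higher, whereas the pump subunits ATP1B1 (11.04 and 10.93) and ATP1B3 (13.87 and 14.00) were close to 0. The carrier chaperones BSG and EMB, which bring lactate carriers to the membrane, were at 0.32 ± 0.31 and -0.49 ± 0.31.

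A further 127 solute carrier symbols were read by a probe set of their own but stayed under 6.1 on both arrays, and 12 were read only by probe sets that name several genes. Neither set is described. Just inside the filter lay SLC2A10 (6.11 and 5.76), SLC5A2 (6.13 and 3.43) and SLC34A1 (5.63 and 6.16), and just outside it lay SLC22A4 (6.09 and 5.48), SLC39A5 (5.76 and 6.05) and SLC1A7 (5.36 and 6.04). Of the 8 proximal tubule markers, LRP2, an endocytic receptor, was above the filter on both arrays (7.17 and 6.88), the water channel AQP1 passed on 1 (6.27 and 5.85) and CUBN on neither (3.20 and 3.31). The other 5 are carriers, and none of them passed on both arrays. SLC22A6 and SLC22A8, its organic anion carriers, were at 3.25 and 5.54 and at 4.97 and 3.37, under the filter on both arrays. SLC5A2 and SLC34A1, its glucose and phosphate carriers, passed on 1 array only, as did SLC13A3 (5.97 and 6.48).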

How the data were processed

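RNA of HEK-293T cells was hybridised to 2 Affymetrix arrays that read the 3′ end of transcripts, 1 per mimic. The authors' deposited values are log2 signals made with MAS5, per the submitters' processing notes, without a version or a scaling target. The log2 base was checked on the values, since 2 to their power had the same 2% trimmed mean, 500.1, on each array. Detection calls and scanner files were not used here.

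Of 54675 probe sets, 41097 name 1 gene in the platform annotation, which can be old, 1801 name several and 11777 are unlisted. By Entrez identifier 41043 matched RefSeq (GRCh38.p14). Gene lengths came from RefSeq. Probe sets at 6.1 or more on at least 1 array were kept, signals under 6.1 were set to 6.1, and the probe set with the highest mean stood for its gene. The number of arrays limits the precision. The computations (Python 3.11.15, numpy 2.4.6, pandas 2.3.3, statsmodels 0.14.6) were tested on simulated data.

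Members and lists were chosen with earlier results of these data known. Substrate classes follow the SLC family number. Named members are the 10 largest differences in each direction above 6.1 on both arrays, the largest bounds, and the lowest, highest and brightest of each class. SLC40A1, SLC6A11, and members and partner genes given as examples of a substrate or role, were added after their values were seen, as were SLC4A1AP and SLC7A6OS to the members that are not carriers. The antisense RNAs and other non-transporters were set apart from the SLC25 and ABC lists after their values were seen. Alternatives were other scalings, floors, probe set rules, a length correction and a 2-fold threshold.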

Additional observations from a re-analysis of the deposited data

How the results depend on the processing

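The count of members lower by 1.5-fold was 15. It was 10 to 16 under the other scalings, with a filter on both arrays, without shared-sequence probe sets or with the length trend removed. These settings kept 162 to 194 members, and 6.19% to 8.61% of all genes were lower under them. The count was 43 of 276 members with floor and filter at the 25th percentile (13.5% of all genes) and 25 with no floor (9.75%). It was 8 of 105 at the 75th percentile (5.99%), 8 with the mean over probe sets (5.14%) and 1 at 2-fold (1.41%). The count higher, 7, was 25 of 276 at the 25th percentile (9.23% of all genes), 1 of 105 at the 75th (0.726%) and 1 at 2-fold (0.448%). Under the others it was 5 to 10, against 2.56% to 5.19% of all genes. With carriers alone, an alternative chosen after seeing the data, the counts were 15 (8.15%) and 6 (3.26%), against 7.25% and 3.03% of all genes. The median of the members stayed between -0.03 and 0.04. Floors change which low signals enter, and the mean over probe sets brings in dimmer probe sets. None of the 22 members past 1.5-fold changed sign, but for many of them the sign could hardly change. Floors and filters cannot turn a sign on the same probe set, and a member with 1 probe set has no other to average. Without shared-sequence probe sets SLC4A7, SLC35E4, SLC1A4, SLC27A5 and SLC22A7 dropped out. The unchanged signs therefore do not show how firm the values are. Of 353 values of members named by the rule under the alternatives, 335 moved by less than the probe set error. Many of these could not move, since several alternatives leave a bright gene with 1 probe set as it is. SLC39A10 was at -0.69 with no floor, at both percentiles, with the filter on both arrays and with the mean over probe sets. This count therefore does not show how firm the values are. With the mean over probe sets SLC2A13 was at -0.58, SLC44A5 at -0.45, SLC39A6 at -0.18, SLC1A4 at 0.06 and SLC5A3 at -0.58. SLC12A2 was then at -0.32, SLC4A7 at -0.43, SLC7A2 at -0.53 and SLC6A11 at -0.30. The means of SLC2A13, SLC4A7, SLC7A2, SLC6A11 and SLC1A4 include a probe set whose size the floor limits. At the 75th percentile SLC10A7 was at -0.19 and SLC27A5 at 0.13, because 1 signal of each was raised to the floor. Under median, loess and quantile scaling SLC4A8 (-0.58 to -0.57) and SLC6A11 (-0.58 to -0.57) were inside 1.5-fold, as was SLC40A1 under median scaling (-0.58). No paired analysis was possible because each group has 1 array. Signal over background limits members near 6.1.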
